A study of Mus musculus with 6 samples.

Results

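The 4 mouse Hox clusters were examined in anti-H3K27me3 CUT&Tag peak lists of ovarian granulosa cells (GCs), from 6 libraries collected 6 h after injection. The genes were the 38 listed Hox genes, out of 21938 annotated protein-coding genes, and the windows around the clusters measured 130 kb (HoxA, 10 genes), 180 kb (HoxB, 10 genes), 130 kb (HoxC, 9 genes) and 110 kb (HoxD, 9 genes). They lie on chromosomes 6, 11, 15 and 2 of mm10 (GRCm38), respectively. The members were chosen by name and position, not by their measured values, but with earlier results of these data known. The mice were 3-week-old ICR females primed with pregnant mare serum gonadotropin (PMSG) and then given 1 intraperitoneal injection of PBS (control group, 3 libraries) or of cyclophosphamide (CTX, an alkylating chemotherapeutic agent; CTX-treated group, 3 libraries). No transgene or deleted allele is named for either group, and the GCs of 3 mice were pooled for each library, so variation between single mice was not seen. The labels do not say which libraries were prepared together, so p-values measure only the spread between these libraries, which may be technical. The libraries are called PBS1 to PBS3 and CTX1 to CTX3, and values of a group follow that order. In such bulk libraries, fewer cells with the mark and less mark per cell cannot be told apart.

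Hox genes encode homeodomain transcription factors that give cells their position along the body axis. They lie in clusters in the order in which they are used, with the anterior genes (low paralog numbers) at the 3′ end and the posterior genes at the 5′ end. H3K27me3 is the mark set by Polycomb repressive complex 2, and silent Hox clusters are classical Polycomb domains, in which the mark spreads over long stretches rather than sitting at single promoters. In the female reproductive tract, posterior HoxA genes such as Hoxa10 and Hoxa11 pattern the uterus and cervix.

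The lists hold narrow peaks, and each Hox cluster appeared in them as a few separated crests. The sequence under the highest crest shared by all libraries is shown for each cluster, because these are the places with the highest pileup that every library called. Each is 200 bases of the plus strand of GRCm38 centred on the median summit, in lower case with CG dinucleotides in capitals, since CpG-rich DNA is known to recruit Polycomb complexes.
HoxA crest, chr6:52170659-52170858: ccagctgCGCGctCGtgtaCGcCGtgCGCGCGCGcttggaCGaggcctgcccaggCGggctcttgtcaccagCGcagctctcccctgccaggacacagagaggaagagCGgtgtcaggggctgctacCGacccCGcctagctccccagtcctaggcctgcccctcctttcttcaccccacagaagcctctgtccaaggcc
HoxB crest, chr11:96290440-96290639: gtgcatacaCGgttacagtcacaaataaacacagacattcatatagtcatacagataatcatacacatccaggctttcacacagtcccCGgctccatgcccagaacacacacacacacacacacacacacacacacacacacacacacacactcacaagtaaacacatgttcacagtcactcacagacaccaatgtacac
HoxC crest, chr15:102930475-102930674: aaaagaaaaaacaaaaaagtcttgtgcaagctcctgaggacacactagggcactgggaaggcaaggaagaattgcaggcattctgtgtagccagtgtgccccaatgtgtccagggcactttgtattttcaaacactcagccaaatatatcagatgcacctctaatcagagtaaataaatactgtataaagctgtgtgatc
HoxD crest, chr2:74675347-74675546: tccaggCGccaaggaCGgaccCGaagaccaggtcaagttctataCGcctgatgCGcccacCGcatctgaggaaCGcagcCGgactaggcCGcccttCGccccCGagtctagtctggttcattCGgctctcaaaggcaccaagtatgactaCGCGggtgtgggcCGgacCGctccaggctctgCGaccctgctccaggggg

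The HoxA crest overlapped an exon of Hoxa3, held 15 CG dinucleotides and had a GC content of 68.5%. The HoxD crest overlapped the coding sequence of Hoxd12, held 17 CG dinucleotides and had a GC content of 64.5%. The HoxB crest lay downstream of Hoxb7, outside annotated genes, and held 2 CG dinucleotides and a CA repeat. The HoxC crest lay between Hoxc13 and Hoxc12 and held 0 CG dinucleotides. The highest crests of HoxA and HoxD were thus CpG-rich and overlapped coding sequence, and those of HoxB and HoxC were CpG-poor sequence between genes. An overlap does not make every base of a crest coding. The pileup is the number of extended reads over a summit, scaled here to a depth of 1000 reads per Mb. Over the 6 libraries it was 52.6 ± 6.64 at the HoxA crest, 37.6 ± 6.79 at the HoxB crest, 34.8 ± 5.17 at the HoxC crest and 30.3 ± 7.31 at the HoxD crest (SD, n = 6).

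The libraries differed in depth, from 1375 to 1957 reads per Mb without and from 1118 to 1630 with CTX treatment, as recovered from the lists. They held 3316 to 9083 summits, of which 20 to 93 lay in the Hox windows. The promoters of 12 genes that GCs use, such as Foxl2, Fshr and Cyp19a1, carried 0 peaks throughout. Of the 8 markers of other cells, Insl3 (theca) had a promoter peak in 5 libraries and Ptprc (immune) in 1, and the other 6 had none.

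To determine how the mark was spread, the number of reads in the 10 kb around each summit was divided by the number expected from the depth of the library, and the quotient is called the 10 kb density. A density of 1 is the genome level. Summits in the Hox windows had a median 10 kb density of 70.2, 62.5 and 68.5 in the PBS libraries, and of 55.5, 58.5 and 51.8 in the CTX libraries. At promoter summits elsewhere in the genome, the median was 25.7, 28.5 and 29.0 in the PBS libraries and 23.3, 23.6 and 23.0 in the CTX libraries. The median of the Hox summits, at promoters or not, was thus 2.19 to 2.73 times that of promoter summits elsewhere in the same library. Over all summits elsewhere, the median was 22.7, 24.7 and 27.2 in the PBS libraries and 15.9, 18.4 and 14.6 in the CTX libraries. Several Hox summits can share the same 10 kb, so a stretch with many summits weighs more in the Hox median. Only 6.52% to 9.65% of the other promoter summits reached the Hox median.

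The fold enrichment, which sets the pileup at a summit against those same 10 kb, was lower in the clusters than elsewhere. Its median per library was 2.25 to 3.08 at Hox summits and 3.16 to 3.68 at other promoter summits, and it was lower at the Hox summits in each library. The pileup itself, scaled to 1000 reads per Mb, had medians of 27.9 to 31.6 at Hox summits and 16.9 to 20.4 at other promoter summits. In a domain wider than 10 kb, a narrow peak is called only where the reads rise above the domain itself. A Hox promoter without a called peak is therefore not shown to lack H3K27me3.

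**Figure D1:**
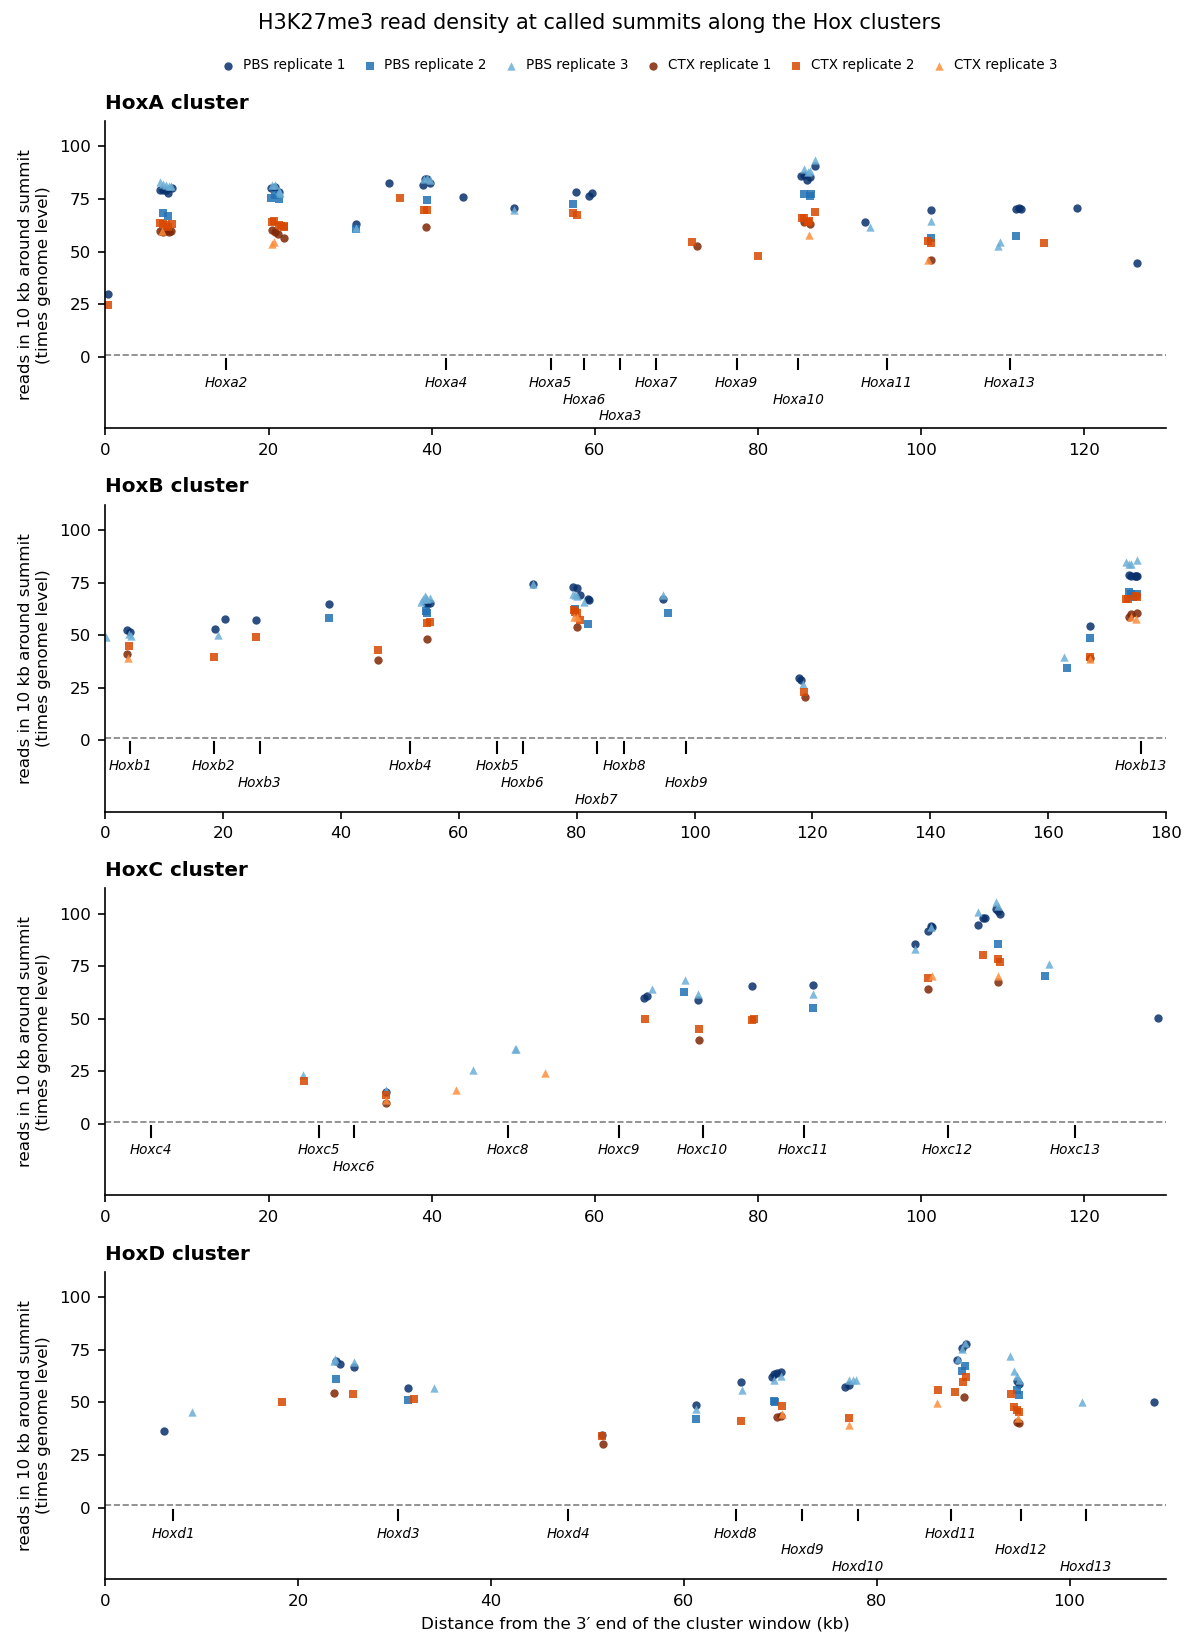
Each point is a called summit (332 in all) in 1 of 6 libraries, placed by its distance from the 3′ end of the cluster window (kb) and by the reads in the 10 kb around it as a multiple of the genome level (dashed line at 1); ticks mark the principal TSS of each listed gene. Most of the 4 clusters lay at densities of 40 to 100, HoxC fell to 9.77 to 35.6 around Hoxc5 to Hoxc8, and most CTX points (orange) lay below PBS points (blue) at the same place.

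The density was not even along the clusters. HoxC differed most from end to end. Among its summits nearest to a gene of paralog groups 9 to 13, the median 10 kb density was 92.8, 66.5 and 79.7 in the PBS libraries, and 64.0, 59.5 and 70.3 in the CTX libraries. Among its summits nearest to Hoxc4, Hoxc5, Hoxc6 or Hoxc8, it was 15.3 and 25.6 in PBS1 and PBS3 and 9.77, 17.1 and 16.2 in the CTX libraries, while PBS2 had no summit there. The 3′ medians rest on 1 to 5 summits a library. The 5′ part was higher in 5 of 5 libraries, by 56.5 ± 12.8 times the genome level (SD, n = 5).

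The highest densities of the whole set, 102 in PBS1 and 105 in PBS3, lay between Hoxc13 and Hoxc12. Hoxc13 is known for its role in hair and nail formation. Near Hoxc12 the nearest summits had densities of 93.8 and 93.4 in PBS1 and PBS3 and of 64.0, 69.3 and 70.4 in the CTX libraries. The summits nearest to Hoxc6 had densities of 15.3 and 15.9 in PBS1 and PBS3 and of 9.77, 13.7 and 11.6 in the CTX libraries. These Hoxc6 summits lay 3978 to 3988 bp from its principal TSS. No summit lay within 5 kb of the principal TSS of Hoxc4 in any library.

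In HoxB the summits nearest to genes of groups 9 to 13, of which most lay at Hoxb13, were denser than the rest in 5 of 6 libraries, by 10.3 ± 6.10 times the genome level (SD, n = 6). The exception was CTX3, with a difference of -0.626. In PBS1, which had the most summits, the density at the nearest summit was 51.6 at Hoxb1, 52.9 at Hoxb2, 57.0 at Hoxb3, 65.2 at Hoxb4 and 74.4 at Hoxb6. Hoxb1, which marks a single segment of the embryonic hindbrain, thus had the lowest density among these genes in PBS1. The next gene, Hoxb7, was at 66.8, below Hoxb6. In PBS3 they were 49.8 at Hoxb1, 50.2 at Hoxb2, 65.6 at Hoxb4 and 74.6 at Hoxb6. In CTX2 they were 44.7 at Hoxb1, 39.7 at Hoxb2, 49.1 at Hoxb3 and 55.8 at Hoxb4, so that Hoxb2 was the lowest there. In the long gap between Hoxb9 and Hoxb13, on the side of Hoxb9, summits had densities of 20.7 to 29.6 in 4 libraries, and the level was high again at Hoxb13.

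In HoxD the posterior part was slightly denser than the rest in 5 of 5 libraries, by 2.92 ± 2.05 (SD, n = 5), and CTX3 had no summit in the anterior part. The lowest HoxD values lay 3475 to 3559 bp from the principal TSS of Hoxd4, at 34.7 in PBS1, 30.0 in CTX1 and 33.9 in CTX2. In HoxA the difference between the parts was -2.37 ± 4.09 (SD, n = 6), which was within the spread between libraries. Summits less than 10 kb apart share reads, so neighbouring densities are not independent, and near the ends of a cluster the 10 kb reach beyond it.

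Between the parts of HoxA, HoxB and HoxD the mean difference was thus at most 10.3, against 56.5 in HoxC. The flanks were covered unevenly. Peaks covered 1.04% to 4.85% of the 4 windows together. In the 100 kb next to the windows, they covered 0% in all libraries beside the 5′ end of HoxC and beside the 3′ end of HoxD, and at most 1.38% beside HoxB. The flank with the most covered sequence was that beyond the 5′ end of HoxA, with 2.74%, 2.85% and 3.01% in the PBS libraries and 0.637%, 2.03% and 0.277% in the CTX libraries. In PBS2 this was more than in the 4 windows together (1.89%) but less than in the HoxA window itself (3.39%).

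Promoter peaks, that is, peaks within 2000 bp of an annotated TSS, were then assigned to genes. Of the 38 Hox genes, 22, 10 and 21 were marked in this way in the PBS libraries, and 12, 19 and 11 were marked in the CTX libraries. Of all protein-coding genes, 9.06%, 7.09% and 8.69% were marked in the PBS libraries and 6.12%, 7.29% and 4.55% in the CTX libraries. Control libraries averaged 17.7 ± 6.66 marked genes and CTX libraries 14 ± 4.36 (SD, n = 3 each). The ranges overlapped, and the difference of -3.67 genes was smaller than the spread between libraries (pooled SD 5.63 genes). The counts were high in the 3 libraries with the highest depth, PBS1, PBS3 and CTX2, and low in the other 3. The part of depth in the counts was not tested, but with equal numbers of summits from each library (3316) the difference was -1 gene.

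**Figure D2:**
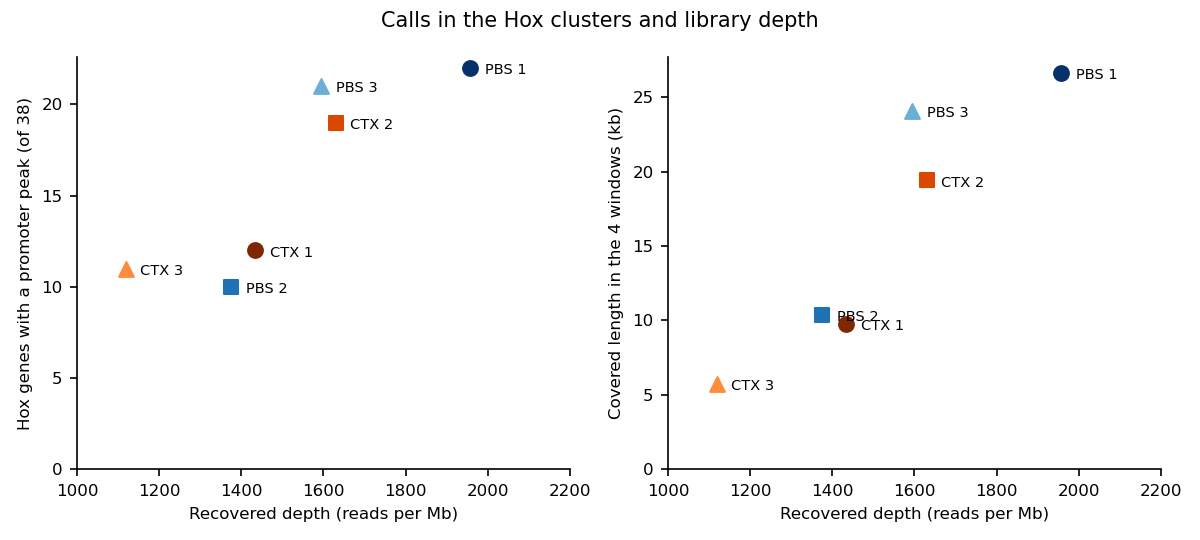
Each point is 1 of 6 libraries, with the depth recovered from the peak list (reads per Mb) on the x axis, the number of the 38 Hox genes with a promoter peak on the left and the covered length in the 4 windows (kb) on the right. PBS1 and PBS3 and CTX2, the deepest libraries, had 19 to 22 genes and 19.4 to 26.7 kb, and the other 3 libraries had 10 to 12 genes and 5.72 to 10.4 kb.

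The genes marked in all 6 libraries were Hoxa10, Hoxb7, Hoxb13, Hoxd11 and Hoxd12, which are 5 of 38, beside 3.47% of all protein-coding genes. Hoxa10, needed in the uterus for implantation, had its nearest summit 354 to 1333 bp from the TSS, with densities of 85.8, 77.2 and 89.2 in the PBS libraries and 63.9, 66.0 and 58.1 in the CTX libraries. Hoxb13, known for its role in the prostate and the tail, had densities of 78.4, 69.7 and 85.9 in the PBS libraries and 60.4, 68.4 and 57.9 in the CTX libraries. The groups did not overlap at either gene.

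Hoxd11 and Hoxd12, which act in the limb and the genital tubercle, were neighbours in this list. At Hoxd11 the densities were 70.3, 65.1 and 70.6 in the PBS libraries and 52.6, 54.9 and 49.7 in the CTX libraries. At Hoxd12 they were 58.9, 53.4 and 60.5 in the PBS libraries and 40.1, 45.2 and 42.6 in the CTX libraries. Again, every PBS library was above every CTX library. At Hoxb7 the densities were 66.8, 55.4 and 65.6 in the PBS libraries and 54.0, 57.4 and 58.5 in the CTX libraries, and the groups overlapped. In 4 libraries the peak of Hoxb7 lay within 2000 bp of its second annotated TSS only. The nearest summits in CTX1 and CTX3 lay 3406 and 3412 bp from the principal TSS. They belong to the region at and downstream of the 3′ end of Hoxb7 that is described below. With the principal TSS alone, Hoxb7 had a peak in PBS1 and PBS2, and 4 genes were marked in all libraries.

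Non-overlapping densities, all higher in the PBS group, were found at 6 of the 7 genes with a summit within 5 kb of the principal TSS in every library, namely Hoxa10, Hoxb13, Hoxd8, Hoxd9, Hoxd11 and Hoxd12. Among all protein-coding genes with such summits in every library, 83.9% also had each PBS library above each CTX library. The count among the Hox genes was therefore near the background, and it says nothing particular about them.

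Hoxa13 and Hoxc11 had a promoter peak in each of the 3 PBS libraries but in 0 of the 3 CTX libraries, which are 2 of 38 genes, beside 0.397% of all protein-coding genes. No Hox gene showed the opposite pattern, beside 0% of protein-coding genes. Hox genes were marked more often than protein-coding genes in general, and 9 of the 38 were marked in every PBS library. Among all genes marked in every PBS library, the share with no CTX peak was not counted. Hoxa13 acts at the posterior end of the urogenital tract and in the distal limb. Its nearest summit had a density of 70.2, 57.3 and 54.6 in the PBS libraries, 764 to 1196 bp from the TSS. In CTX2 the nearest summit lay 4138 bp away, at a density of 54.0, and in the other CTX libraries none was within 5 kb. At Hoxc11 the densities were 66.0, 55.1 and 62.0 in the PBS libraries, with summits 1142 to 1168 bp from the TSS, and no CTX library had a summit within 5 kb. With equal numbers of summits, 0 genes showed this pattern, and 0 did at a q-value of at most 1e-05. Without PBS2, the library with the fewest marked Hox genes, 4 genes showed it.

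**Figure D3:**
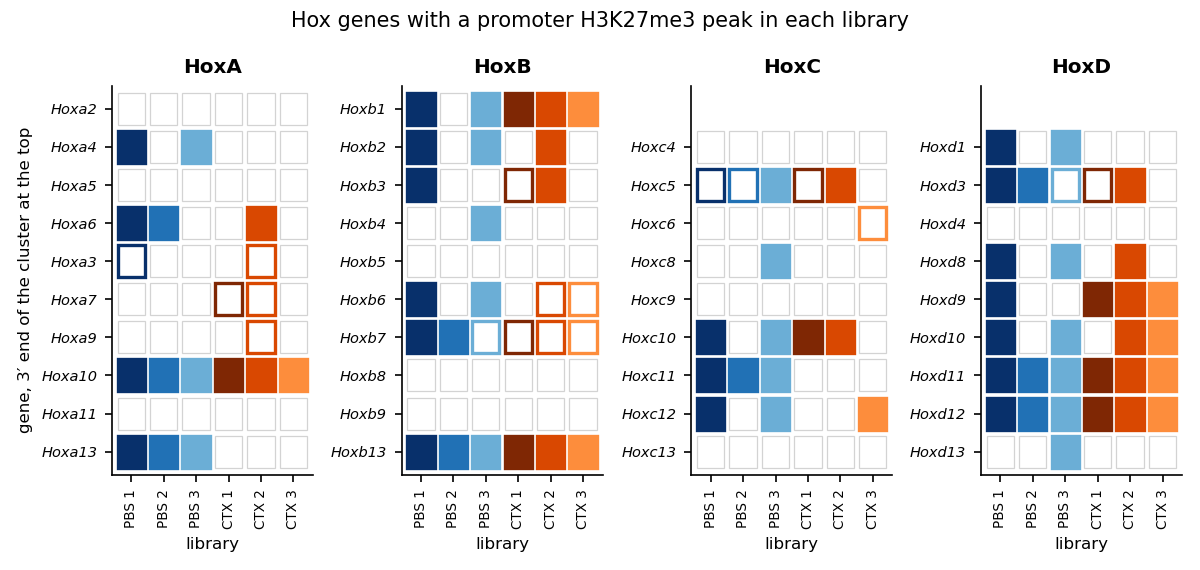
Rows are the 38 listed genes, with the 3′ end of each cluster at the top, and columns are the 6 libraries; a filled square marks a peak within 2000 bp of the principal TSS, a coloured frame a peak at another annotated TSS of the gene alone, and a grey frame no promoter peak. Hoxa10, Hoxb13, Hoxd11 and Hoxd12 were filled in all libraries, and Hoxa13 and Hoxc11 in the PBS libraries.

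No promoter peak was called in any library at 10 genes, namely Hoxa2, Hoxa5, Hoxa11, Hoxb5, Hoxb8, Hoxb9, Hoxc4, Hoxc9, Hoxc13 and Hoxd4. Of these 10, 6 had a summit within 5 kb of the principal TSS in at least 1 library. At Hoxa5, the nearest summits had densities of 78.4, 72.7 and 69.6 in the PBS libraries and 68.3 in CTX2. At Hoxb9 they had densities of 67.3, 60.7 and 69.0 in the PBS libraries. Hoxa11, known for its role in the uterus, had densities of 64.2 and 61.8 in PBS1 and PBS3. These values were above the median of other promoter summits, although no promoter peak was called. Only Hoxa2, Hoxb5, Hoxb8 and Hoxc4 had no summit within 5 kb in any library.

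Across the set, 34 of 38 genes had a summit within 5 kb in at least 1 library and 7 in all 6. Of the genes with such a summit, 27 of 28, 17 of 17 and 26 of 28 were denser than the median other promoter summit without treatment. After CTX treatment these were 15 of 16, 23 of 25 and 11 of 12. The exceptions were Hoxc5 and Hoxc6.

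The remaining genes had a promoter peak in 1 to 5 libraries. Hoxb1, Hoxc5 and Hoxd3 were marked in 5 libraries. The peak of Hoxc5 in PBS1 and PBS2 and CTX1 lay within 2000 bp of an upstream TSS inside Hoxc10. In PBS1 and CTX1 it cannot be told from the Hoxc10 promoter peak. In PBS2 no promoter peak was assigned to Hoxc10, and the nearest summit lay 2272 bp from the Hoxc10 TSS. At Hoxb1 all 5 libraries had the peak at the principal TSS, and PBS2 was the library without one. The principal TSS of Hoxa3 lies between Hoxa6 and Hoxa7, and its peaks in PBS1 and CTX2 were at other TSSs. Overlapping transcripts of neighbouring genes thus limit how far a promoter peak can be given to 1 Hox gene.

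By position, 34.8% ± 23.3 of the 11 genes of groups 1 to 4, 37.9% ± 12.1 of the 11 genes of groups 5 to 8 and 49.0% ± 11.5 of the 16 genes of groups 9 to 13 had a promoter peak (SD over 6 libraries). The share of posterior minus that of anterior genes was -1.14, 28.4 and 7.95 percentage points in the PBS libraries, and 10.2, 4.55 and 34.7 in the CTX libraries. The mean was 14.1 ± 14.2 percentage points (SD, n = 6). The libraries with the largest differences were PBS2 and CTX3, which had the lowest depths. With 1 TSS a gene the difference was 20.6 ± 11.5 and above 0 in each library.

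The paralog groups with the highest share of marked gene and library pairs were group 10 (77.8%) and group 12 (75%), and those with the lowest were group 4 (12.5%) and group 9 (20.8%). Low and high groups were thus next to each other along the clusters. The HoxD cluster had the highest share of genes with a promoter peak, 57.4% ± 19.1 over the 6 libraries. The shares were 46.7% ± 16.3 in HoxB, 31.7% ± 16.02 in HoxA and 31.5% ± 14.8 in HoxC (SD, n = 6 each).

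By covered length the order of the clusters was different. Peaks covered 4.47% ± 2.15 of the HoxA window, 3.29% ± 2.09 of HoxD, 2.31% ± 1.18 of HoxB and 1.86% ± 1.25 of HoxC (SD over 6 libraries). These SDs are as large as the differences between neighbours in that order, but HoxA had the highest share in 5 of 6 libraries. In PBS3, HoxD was slightly higher, with 5.88% against 5.65%.

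The 4 windows together had 26.7, 10.4 and 24.1 kb covered in the PBS libraries, and 9.78, 19.4 and 5.72 kb in the CTX libraries. The means were 20.4 ± 8.76 and 11.6 ± 7.04 kb (SD, n = 3 each). The difference of -8.74 kb was close to the spread between libraries (pooled SD 7.94 kb), and the groups overlapped. It was -3.12 kb with equal numbers of summits. All 4 clusters had a lower mean after CTX treatment, with ratios of CTX to PBS of 0.670 (HoxA), 0.586 (HoxB), 0.506 (HoxC) and 0.459 (HoxD), and the ranges of the groups overlapped in each.

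The most covered sequence of each cluster lay around Hoxa2, Hoxb13, Hoxc12 and Hoxd12, when each base of a window was given to the nearest principal TSS. Around Hoxa2, which patterns the hindbrain and the second pharyngeal arch, 2795, 1782 and 2924 bp were covered in the PBS libraries and 2745, 3465 and 835 bp in the CTX libraries. This stretch takes in the 3′ end of the window and the crest in Hoxa3, and none of its peaks lay within 2000 bp of the Hoxa2 TSS. Around Hoxb13, 1295, 1320 and 1603 bp were covered in the PBS libraries and 1022, 1210 and 627 bp in the CTX libraries. The groups overlapped at Hoxa2 and did not at Hoxb13. How often the groups did not overlap in the stretches around other genes was not counted.

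Around Hoxc12, 2557, 247 and 1355 bp were covered in the PBS libraries and 578, 994 and 719 bp in the CTX libraries. Around Hoxd12, 832, 719 and 1148 bp were covered in the PBS libraries and 695, 1116 and 200 bp in the CTX libraries. In both cases the groups overlapped. The stretches around Hoxa3, Hoxb5, Hoxb8 and Hoxc4 had 0 covered bases in all 6 libraries. That of Hoxa3 is only 4392 bp around its principal TSS, and the crest in Hoxa3 was counted in the stretch around Hoxa2.

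To compare the groups where every library had a value, the peaks of all libraries were merged into 12430 regions, of which 91 lay in the Hox windows. Of the Hox regions 41.8% were called in 1 library and 8.79% (8 regions) in all 6, beside 62.8% and 9.10% of all regions. Of the 8 regions, 4 lay in HoxA, 2 in HoxB, 1 in HoxC and 1 in HoxD. In HoxA they were a region overlapping an exon of Hoxa3 (chr6:52169998-52171973) and the region upstream of the principal TSS of Hoxa10 (chr6:52235228-52236650). HoxA also held one upstream of Hoxa11 (chr6:52250731-52251490) and one at the 3′ end of the window. In HoxB they were Hoxb13 (chr11:96194693-96195351) and the region at and downstream of the 3′ end of Hoxb7 (chr11:96289923-96290728). The others were the region between Hoxc13 and Hoxc12 (chr15:102930247-102930921) and Hoxd12 (chr2:74674977-74676274). The 8 regions had 3.16% to 20% of their bases in repeats.

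The scaled pileup, the height of the crest, was tested with limma over 1130 regions with a value in every library. It was lower after CTX treatment in 7 of the 8 Hox regions, 0 passed an adjusted p of 0.05, and 0 had an unadjusted p under 0.05 in limma. The adjusted p-values of limma were 0.160 to 0.767, and 1.33% of all regions were called lower. The region overlapping the Hoxa3 exon had the highest scaled pileup of the set. There it was 54.2, 57.4 and 62.7 in the PBS libraries and 47.5, 48.5 and 45.6 in the CTX libraries. The groups did not overlap, and the log2 fold change was -0.30 ± 0.15 (SE; limma adjusted p = 0.180). How many of the 1130 regions had no overlap of the scaled pileup was not counted. The median log2 fold change of all 1130 was -0.26, so a lack of overlap here is not shown to be particular to Hox regions.

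Between Hoxc13 and Hoxc12 the scaled pileup was 40.4, 34.2 and 41.4 in the PBS libraries and 27.9, 31.9 and 33.1 in the CTX libraries, again without overlap (log2 fold change -0.32 ± 0.16 SE, limma adjusted p = 0.178). At Hoxa10 it was 48.5, 34.2 and 44.5 in the PBS libraries and 31.4, 36.8 and 31.3 in the CTX libraries, and at Hoxd12 it was 29.1, 28.4 and 44.5 and then 23.0, 28.2 and 28.6. In both, the groups overlapped, as they did upstream of Hoxa11 (41.4, 30.5 and 33.9, then 32.1, 27.6 and 23.3) and at Hoxb13 (33.2, 32.0 and 37.6, then 25.8, 34.4 and 33.1). At the 3′ end of HoxA the scaled pileup was 47.5, 49.4 and 53.3 in the PBS libraries and 41.2, 38.05 and 41.1 in the CTX libraries, without overlap (log2 fold change -0.32 ± 0.15 SE, limma adjusted p = 0.160). The region downstream of Hoxb7 was the exception in sign. Its scaled pileup was 36.8, 35.6 and 35.7 in the PBS libraries and 27.2, 43.6 and 46.5 in the CTX libraries, with a log2 fold change of 0.078 ± 0.20 (SE; limma adjusted p = 0.767). Relative to the median of all 1130 regions, which was -0.26, the median of the Hox regions was -0.061, and 6 of 8 were negative.

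The 10 kb density is based on more reads, 476 to 2004 for each of these values against pileups of 26 to 106, with counting errors of 2.23% to 4.58% and 9.71% to 19.6%, respectively. It was lower after CTX treatment in all 8 Hox regions, and the groups did not overlap in any of them. All 8 passed the limma test, with adjusted p-values of 0.00311 to 0.0439 and log2 fold changes of -0.49 to -0.23. Over all 1130 regions, 72.2% were called lower by the same test, so the 8 calls are near what regions in general showed. The median log2 fold change was -0.32 over all regions and -0.40 over the Hox regions.

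The largest difference of the 8 was at Hoxd12, with densities of 60.3, 55.8 and 64.9 in the PBS libraries and 40.8, 45.2 and 42.6 in the CTX libraries (log2 fold change -0.49 ± 0.09 SE, limma adjusted p = 0.00311). The region overlapping the Hoxa3 exon had 80.7, 76.9 and 81.9 in the PBS libraries and 59.5, 64.7 and 54.6 in the CTX libraries. Its log2 fold change was -0.42 ± 0.09 (SE, limma adjusted p = 0.00425). At Hoxa10 the densities were 85.5, 77.2 and 88.6 in the PBS libraries and 63.9, 63.9 and 58.1 in the CTX libraries (log2 fold change -0.43 ± 0.09 SE, limma adjusted p = 0.00383). These 3 regions were lower in each CTX library than in each PBS library.

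Between Hoxc13 and Hoxc12, the densest place of all, the values were 102, 85.7 and 104 in the PBS libraries and 67.7, 78.5 and 70.2 in the CTX libraries (log2 fold change -0.43 ± 0.10 SE, limma adjusted p = 0.00620). Upstream of Hoxa11 they were 69.7, 56.4 and 64.7 in the PBS libraries and 46.0, 55.2 and 45.8 in the CTX libraries (log2 fold change -0.38 ± 0.11 SE, limma adjusted p = 0.0131). At the 3′ end of HoxA they were 79.2, 68.4 and 82.2 in the PBS libraries and 59.4, 62.8 and 60.02 in the CTX libraries (log2 fold change -0.33 ± 0.09 SE, limma adjusted p = 0.0104). At Hoxb13 they were 78.2, 69.7 and 85.9 in the PBS libraries and 60.4, 68.7 and 57.9 in the CTX libraries (log2 fold change -0.32 ± 0.10 SE, limma adjusted p = 0.0203). The call at Hoxb13 was lost without PBS3 (limma adjusted p = 0.0691), CTX1 (0.0578) or CTX3 (0.0682). CTX2 was the highest CTX library in all of these regions, and PBS2 the lowest PBS library in each.

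The smallest difference was downstream of Hoxb7, with 73.0, 62.5 and 69.7 in the PBS libraries and 54.0, 62.0 and 58.8 in the CTX libraries (log2 fold change -0.23 ± 0.09 SE, limma adjusted p = 0.0439). With a replicate block the adjusted p was 0.0906. The call was also lost without PBS1 (limma adjusted p = 0.129), PBS3 (0.0951), CTX1 (0.161) or CTX3 (0.0813). When each library was centred on the median of all regions, the log2 fold changes of the Hox regions were -0.19 to 0.075 with limma adjusted p-values of 0.158 to 0.934, 0 were called (1 had an unadjusted p under 0.05), and 8.94% of all regions were called in either direction. At Hoxd12 the centred value was -0.19 ± 0.07 (SE; limma adjusted p = 0.158). A difference of the Hox regions from regions in general was therefore not detected in these libraries, and a loss common to most called regions cannot be told apart from a change in how many reads fell outside them.

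**Figure D4:**
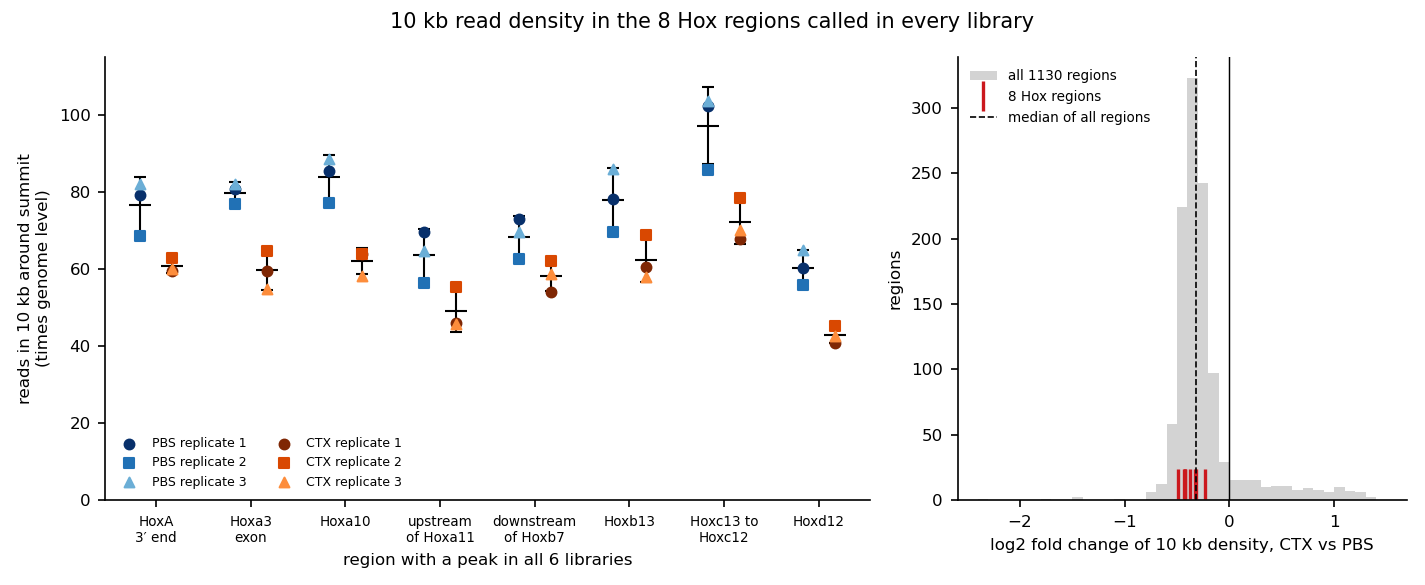
Left, the 10 kb density (times the genome level) of the 8 Hox regions called in all 6 libraries, with a point for each library and bars at the mean ± SD of each group (n = 3). Right, the log2 fold change of the density (CTX against PBS) of all 1130 regions (grey), with the 8 Hox regions as red ticks between -0.49 and -0.23 and the median of all regions, -0.32, as a dashed line.

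The median density of all Hox summits gave the same direction in each cluster. In HoxA it was 78.4 ± 3.50 without and 59.1 ± 4.20 with CTX treatment, and in HoxB 65.0 ± 3.53 and 54.4 ± 5.37. In HoxC it was 74.1 ± 15.4 and 41.9 ± 15.4, and in HoxD 58.7 ± 4.55 and 45.5 ± 4.04 (SD, n = 3 each). The groups did not overlap in any of the 4 clusters. Nor did they at promoter summits elsewhere, with medians of 25.7, 28.5 and 29.0 in the PBS libraries. There the CTX medians were 23.3, 23.6 and 23.0, so the lack of overlap was not particular to the clusters. The summits behind the Hox medians were not the same ones in each library. This matters most in HoxC, where CTX3 had 3 of 5 summits in the sparse 3′ part.

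The clusters also hold genes of other kinds. Of 7 annotated microRNA genes in the windows, 5 had a promoter peak in at least 1 library and 1 in all 6, beside 4.09% and 0.863% of all microRNA genes. The Hox microRNAs share their seeds (bases 2 to 8, in capitals) across clusters, and the mature sequences from RefSeq (GRCm38.p6) are shown because genes with the same seed differed in their calls.
miR-10a-5p (HoxB, between Hoxb5 and Hoxb4): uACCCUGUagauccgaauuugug
miR-10b-5p (HoxD, by Hoxd4): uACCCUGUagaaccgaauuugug
miR-196a-5p (HoxB and HoxC, 2 genes): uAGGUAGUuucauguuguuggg
miR-196b-5p (HoxA, by Hoxa9): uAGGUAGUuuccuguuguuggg

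With the seed ACCCUGU, Mir10a had a promoter peak in 5 libraries and Mir10b in none. The nearest summit to Mir10a had densities of 65.2, 61.3 and 65.6 in the PBS libraries and 48.3 and 55.8 in CTX1 and CTX2. With the seed AGGUAGU, Mir196a-2 had a promoter peak in 3 libraries, Mir196b in 1 and Mir196a-1 in none. Mir615 of HoxC, which has another seed, had one in 2 libraries, at densities of 23.2 and 20.4. These genes lie close to Hox promoters, so their peaks are in part those of the Hox genes, and they were singled out after their values were seen. Of 41 other noncoding genes in the windows, 19 had a promoter peak in at least 1 library and 5 in all 6, beside 3.52% and 0.819% of all such genes.

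Outside the clusters, Meis1, which encodes a cofactor with which Hox proteins bind DNA, had a promoter peak in each PBS library but in 0 CTX libraries, the same pattern as Hoxa13 and Hoxc11. Of 12 genes next to the clusters, 4 had a promoter peak in at least 1 library, beside 11.9% of protein-coding genes. Skap1 was marked in all 6 libraries, Evx1, a homeobox gene beyond Hoxa13, in PBS1 and PBS2, and Evx2 and Smug1 in PBS1.

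The promoters of the 38 genes were richer in CpG than most. The observed over expected CpG ratio in the 250 bp on either side of the principal TSS had a median of 0.744, beside 0.607 over protein-coding genes, and 27 of 38 (71.1%) were above 0.6, beside 50.5%. It was 0.835 in the 5 genes with a promoter peak in all libraries and 0.751 in the 10 genes with none, with ranges of 0.557 to 0.947 and 0.340 to 1.10 that overlapped. The ratio was above 0.6 in 3 of these 5 genes and in 8 of these 10. Repeats made up 14.6% of the HoxA window, 24.4% of HoxB, 16.2% of HoxC and 14.7% of HoxD, beside 34.3% of the autosomes and X.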

How the data were processed

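The authors aligned CUT&Tag reads to mm10 with BWA, kept uniquely mapped, de-duplicated reads and called peaks in each library with MACS2 2.1.0 at q 0.05. The deposited lists give a score, a fold enrichment (a ratio of pileup to local background) and the −log10 p-value and −log10 q-value of each summit. A control library is not given in the sources used here. MACS2 takes as background the larger of the genome level and the reads in 10 kb around the summit, so its calls favour crests over broad domains.

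From the deposited fold enrichment and −log10 p-value, the whole-number pileup, its 10 kb background and the depth were solved (at least 99.9% of summits per library; reads extended by 200 bp). This was tested on simulated data (Python 3.11.15, scipy 1.17.1). The 10 kb density was chosen after the data were seen, as was the split of the clusters by groups 1 to 8 and 9 to 13. Genes and TSSs came from the GENCODE annotation of GRCm38, and the principal TSS is that of the principal or first-named transcript. Regions were merged over libraries and tested with limma 3.58.1 (R 4.3.3), Benjamini-Hochberg adjusted over all regions. Other counts are descriptions, with no test. Alternatives were a stricter q-value, equal numbers of summits, other TSS windows, other scalings and leaving out each library. Replicate numbers were not treated as pairs. The members and lists were chosen with earlier results of these data known. Named genes were those marked in all libraries, in every library of 1 group and no library of the other, or in none, and the gene with the most covered sequence around it in each cluster. Other Hox genes given with densities, and the genes of the further lists, were named after their values were seen. All depths are recovered, and counting errors cover counting alone.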

Additional observations from a re-analysis of the deposited data

How the results depend on the processing

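The difference in Hox genes with a promoter peak kept its sign under each alternative tried, from -6.33 with 1 TSS a gene to -1 with equal numbers of summits, and from -7.5 to -1.5 without 1 library, as did the covered length, from -9.29 kb with peaks within 1000 bp joined to -3.12 kb, and from -13.7 to -5.60 kb without 1 library. The count of genes marked in all libraries, 5, was 0 at the stricter limit (q-value 1e-05), and 2 with equal numbers of summits and with a TSS window of 1000 bp. The count marked in every PBS and no CTX library, 2, was 0 at that limit, 0 with equal numbers of summits, 1 with a TSS window of 1000 bp (Hoxa13), and 2 to 4 without 1 library (4 without PBS replicate 2). The causes were not tested. The share of posterior minus anterior genes was 9.66 to 20.6 percentage points, and 10 to 17.2 without 1 library.

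The limma fit of the scaled pileup called 50 of 1130 regions (15 lower, 35 higher), 8 without repeat-rich regions and 0 on log2 fold enrichment (71 at an unadjusted p under 0.05). Without 1 library it called 13 to 95, with 95 without PBS replicate 1, 13 without PBS replicate 3, 16 without CTX replicate 1 and 19 without CTX replicate 3. It called no Hox region under any of these. Signs turned at Hoxb13 (0.11 median-centred, 0.15 on fold enrichment), downstream of Hoxb7 (0.078, -0.019 without CTX replicate 2, -0.066 without CTX replicate 3 and up to 0.32 without CTX replicate 1) and, on fold enrichment, at Hoxc12 (0.095), Hoxd12 (0.13), in Hoxa3 (0.10), at Hoxa10 (0.070) and upstream of Hoxa11 (0.00241). The fold enrichment divides by the 10 kb background, which was itself lower after CTX treatment in all 8 regions.

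On the 10 kb density, 893 regions were called (816 lower, 77 higher), 705 to 929 without 1 library, 1423 of 2030 when 2 libraries of each group sufficed, and 101 median-centred, where the region downstream of Hoxb7 had a log2 fold change of 0.075. Of the 8 Hox regions 6 to 8 stayed called without 1 library. Hoxb13 had limma adjusted p-values of 0.0691, 0.0578 and 0.0682 without PBS replicate 3, CTX replicate 1 and CTX replicate 3, and the region downstream of Hoxb7 had 0.0813 to 0.161 without PBS replicate 1 or 3 or CTX replicate 1 or 3. The difference in median density of Hox summits, -11.8, was -16.3 over the 8 shared regions and -14.1 to -10.04 without 1 library.

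Same-numbered libraries were not paired, since their deviations from the group means correlated at 0.0857, -0.124 and -0.0283 over 1130 regions. With a replicate block the limma fit of the scaled pileup called 46 regions, and that of the density called 813 and 7 of the 8 Hox regions, all but the one downstream of Hoxb7 (adjusted p = 0.0906). Depth differed between libraries, and the 3 shallower ones had 10 to 12 marked Hox genes; its part was not tested.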
